A study of Mus musculus with 13 samples.

Results

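The PYHIN family, also called the Ifi200 family, was followed through the RNA of mouse natural killer (NK) cells. Its 10 listed members, Ifi203, Ifi204, Ifi206, Ifi207, Ifi208, Ifi209, Ifi213, Mndal, Mnda and Aim2, were taken by Ensembl identifier from count files that hold 54532 genes. The GENCODE M21 annotation has no symbol Mnda, and the RefSeq gene table gives that name only as a synonym of Ifi211 (ENSMUSG00000026536), so Ifi211 stands for it throughout. Ifi207 was selected on its CPM in these same data, for its higher level under the CD8KO label in liver NK cells, so its values in that comparison are a description and carry no test.

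RNA was sequenced from sorted liver-resident NK cells (LrNK, labelled as liver lymphocytes) and conventional NK cells (cNK, labelled as splenocytes). The 4 groups were LrNK labelled CD8KO, LrNK labelled wild type (WT), cNK labelled CD8KO and cNK labelled WT, all C57BL/6J and 8 to 10 weeks old. CD8KO names mice without CD8, and the study asked whether CD8+ T cells shape the maturation of LrNK through CD70 and CD27. The labels do not give the allele, the number of mice per library or whether mice were pooled, and they do not say that libraries came from separate mice, so p-values measure the spread between these samples, which may be technical. LrNK came from liver and cNK from spleen, so cell type and organ cannot be told apart.

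The 13 libraries held 30578631 to 72716020 counts each. Libraries 2 and 4 of LrNK WT, and libraries 2 and 3 of LrNK labelled CD8KO, matched each other far more closely (chi-square per degree of freedom 3.037 and 2.673) than the other LrNK pairs of a group (195.8 to 283.1), and closer than any cNK pair (8.917 to 18.11). Each such pair was summed and counted as 1 sample, written 2+4 and 2+3, which left 2 LrNK samples labelled CD8KO, 3 LrNK WT samples and 3 cNK samples of each label. LrNK samples differed from each other far more than cNK samples did (biological coefficient of variation 98.22% in LrNK and 9.596% in cNK). In 3 LrNK libraries, CD8KO 1, WT 1 and WT 3, fewer than 16000 genes were detected. Cd8a, which encodes the CD8 alpha chain, went against the label. It was at 41.6 and 43.7 CPM (counts scaled to the library total, per 1000000) in LrNK labelled CD8KO and at 20.5, 20.1 and 20.5 CPM in LrNK WT. In cNK it was at 87.3, 85.9 and 109 CPM under the CD8KO label and at 0.568, 0.578 and 0.561 CPM in WT. The labels may be exchanged in either cell type, which cannot be settled here, so WT and CD8KO name library labels throughout and each direction by label refers to them. The defining markers matched the cell type labels: the summed CPM of 7 liver-resident NK markers was 1010 to 1820 in LrNK and 65.5 to 86.6 in cNK.

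PYHIN proteins pair an amino-terminal pyrin domain, which binds other pyrin domains, with carboxy-terminal HIN domains that bind DNA, although some members carry only one kind of domain. Aim2 senses double-stranded DNA in the cytosol and assembles an inflammasome through the adaptor ASC (Pycard) and caspase-1. Others act in the nucleus or feed into the STING pathway, and most of the mouse genes are induced by interferon through the factor ISGF3, which binds the interferon-stimulated response element (ISRE). The family has expanded in mice into a cluster of closely similar genes, and its expression is best known in myeloid cells and lymphocytes exposed to interferon.

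All 10 members lay in 1 cluster on chromosome 1 (GRCm38), which ran for 681 kb from the start of Aim2 to the end of Ifi205. Ifi207 occupied chr1:173723427-173741747 on the minus strand, next to Ifi204 at chr1:173747293-173766943, also minus. Aim2 stood at one end, at chr1:173350879-173466040 on the plus strand. Ifi211 at chr1:173896345-173913046 lay within the span that GENCODE M21 gives for Mndal (minus strand). The 2 RefSeq starts of Mndal used below both lie under position 173880437, so with these Ifi211 is outside it. The 3 other family genes in the annotation, Ifi214, Ifi202b and Ifi205, sit in the same cluster.

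The promoters of the cluster shared a short stretch with an ISRE core, which is shown here because most members held it close upstream. On the gene's own strand, the core ended 25 (Ifi203) to 63 (Ifi213) bases before the RefSeq start. RefSeq windows (GRCm38.p6, 250 bases before to 50 after each start) were found for 9 members, all but Ifi204. The core GAAANNGAAA was searched on both strands. It was found upstream of a RefSeq start, on the gene's own strand, in 7 of the 9 members, while the windows of Ifi209 and Aim2 held none. Of all 27025 genes with a window, 3.99% held the core on either strand. The exact letters GAAATCGAAA, singled out after the windows were read, occurred in 16 of the 27025 genes (0.0592%), and 7 of those 16 were family genes: 6 members and Ifi214. A second search for the GAS core TTCNNNGAA, the interferon-gamma activated element, matched 9.55% of genes and, of the 12 family genes with a window, 1, which was Ifi202b. The stretches below are 58 bases, 5′ to 3′ on the gene's strand, with the ISRE core in capitals.
Ifi207, chr1:173741817-173741874, minus strand: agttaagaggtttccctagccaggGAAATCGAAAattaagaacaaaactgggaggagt
Ifi211, chr1:173913050-173913107, minus strand: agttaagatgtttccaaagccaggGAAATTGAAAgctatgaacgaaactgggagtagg
Ifi203, chr1:173942494-173942551, minus strand: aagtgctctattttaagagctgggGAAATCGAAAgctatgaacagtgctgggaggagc
Ifi206, chr1:173491325-173491382, minus strand: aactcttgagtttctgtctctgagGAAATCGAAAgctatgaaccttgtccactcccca
Ifi208, chr1:173673583-173673640, plus strand: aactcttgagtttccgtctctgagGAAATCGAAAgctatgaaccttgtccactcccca
Ifi213 had the same 58 bases as Ifi208, and Mndal the same 58 as Ifi203. In the sequences shown, Ifi211 alone had the core GAAATTGAAA in place of GAAATCGAAA. A match describes the letters in a window and says nothing of binding.

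Transcript similarity limits how well reads of the members can be separated. Of the 50-base windows in Ifi211's annotated transcripts, 72.8% also occurred in another gene, mainly Ifi205 (44.7%) and Ifi204 (30.1%). The share was 33.7% for Ifi209, nearly all of it with Ifi214, and 25.6% for Ifi206. It was between 12.4% and 20.9% for Ifi208, Ifi204, Mndal, Ifi213 and Ifi203. Ifi207 (7.29%) and Aim2 (0.742%) were the most distinct. How the counting treated reads that fit 2 genes is not given in the sources used here, so the level of Ifi211 in particular is uncertain. Exons of Ifi203 and Mndal overlap by 37 bases.

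The members fell along a wide range of levels. Compared per kilobase of exon, the level in cNK WT was 78.7 ± 9.36 CPM per kb for Mndal (SD, n = 3), 57.9 ± 5.83 for Ifi203 and 50.5 ± 3.7 for Ifi209. Ifi206 followed at 26 ± 1.79, then Ifi208 at 11.7 ± 1.62, Aim2 at 11.3 ± 1.06 and Ifi213 at 8.29 ± 1.56. At the low end were Ifi204 (2.32 ± 1.23), Ifi211 (1.98 ± 0.915) and Ifi207 (0.57 ± 0.172). Neighbours in this order differed by less than the sum of their SDs for Ifi203 and Ifi209, for Ifi208 and Aim2, and for Ifi204 and Ifi211. In LrNK labelled CD8KO, Ifi204 (32.3 ± 24.8, SD, n = 2), Ifi211 (36.5 ± 26.2) and Ifi207 (29.7 ± 7.44) stood in the same range as Ifi206 (30.7 ± 12.2) on that scale. Values below are CPM, which serve to compare 1 gene between samples.

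**Figure D1:**
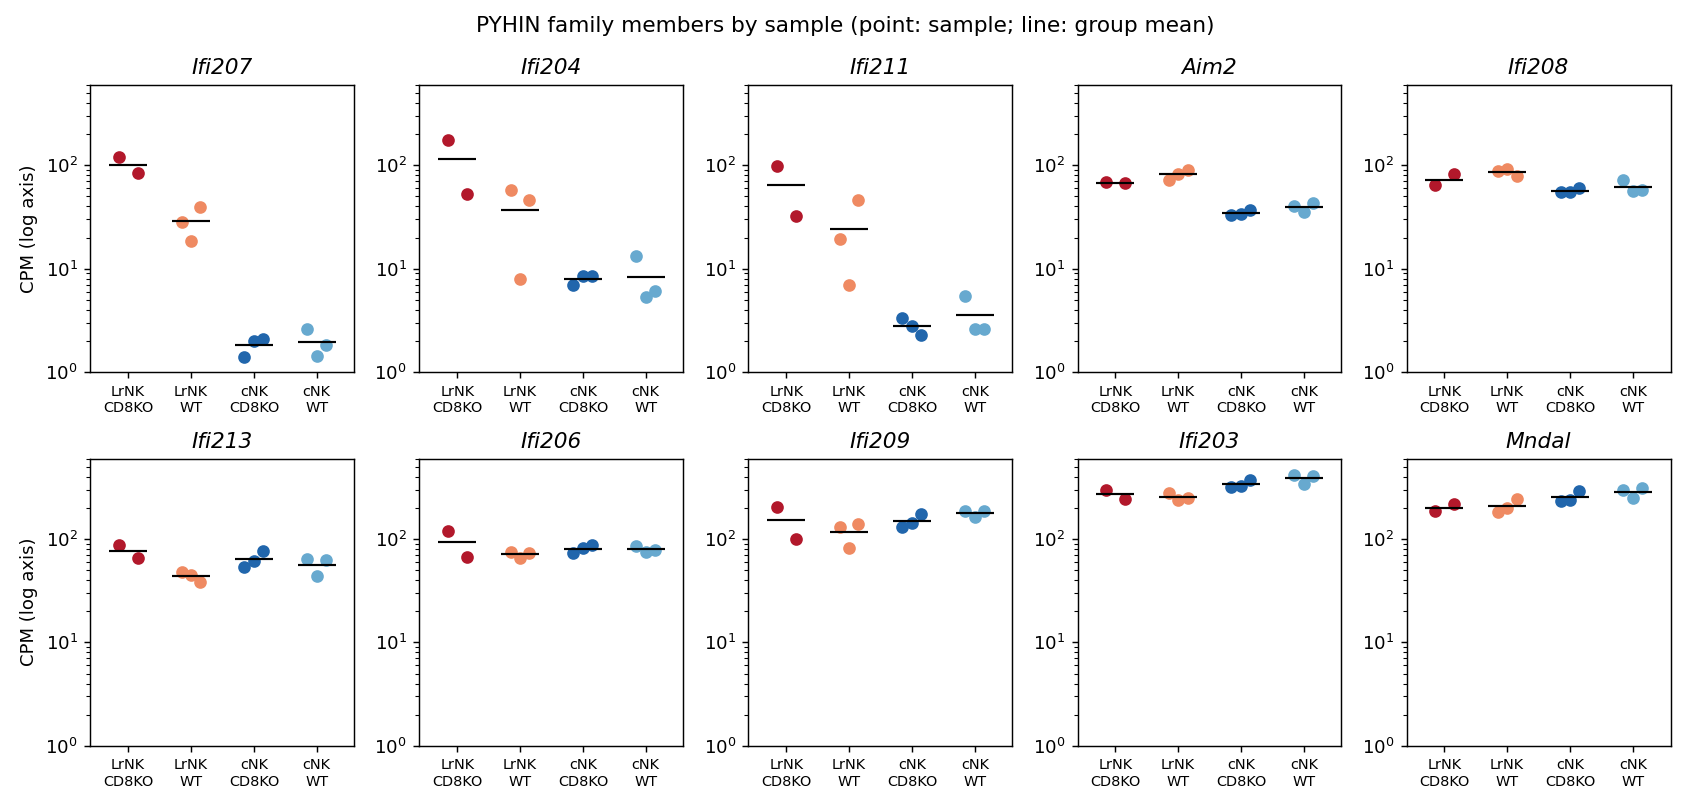
CPM (log axis) of the 10 members in each sample, with a line at the group mean, for LrNK labelled CD8KO (n = 2), LrNK WT (n = 3), cNK labelled CD8KO (n = 3) and cNK WT (n = 3). Ifi207 is between 18.5 and 120 CPM in LrNK and between 1.4 and 2.59 in cNK, while Ifi203 and Mndal stay within 183 to 417 CPM in every sample.

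The widest differences between LrNK and cNK were in 3 members, Ifi207, Ifi211 and Ifi204, of which edgeR called Ifi204 under the CD8KO label only. In the libraries labelled WT, edgeR's quasi-likelihood test with Benjamini-Hochberg adjustment over all genes called 4 members higher and 1 lower in LrNK than in cNK. Over all 16456 genes tested, 20.7% were called, 10.9% higher and 9.83% lower. All 10 members passed the filter on low counts. Their median log2 change was 0.254, against -0.0814 over all genes tested. With the CD8KO label, 3 of the 9 members other than Ifi207 were called higher and none lower, where 27.0% of 17795 genes were called, 15.4% higher and 11.6% lower, with a median of 0.446 over all 10 members against -0.0461 over all genes tested. Ifi207 is left out of that count because it was selected on those LrNK values.

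Ifi207, described in mouse cells as stabilising STING, was at 28.5, 18.5 and 39.9 CPM in LrNK WT, against 2.59, 1.43 and 1.83 in cNK WT. Every LrNK sample lay above every cNK sample. The fold difference was 15.6 (log2 3.96 ± 0.38 SE, edgeR adjusted p = 0.00125). Choosing Ifi207 for its rise by label favoured low values in LrNK WT and high ones in LrNK labelled CD8KO. Under the CD8KO label it was at 120 and 83.6 CPM in LrNK, against 1.4, 1.99 and 2.08 in cNK, a log2 difference of 5.91 ± 0.24 that is given as a description.

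Ifi211, the mouse relative of the human myeloid nuclear differentiation antigen MNDA, was at 19.4, 6.91 and 46.1 CPM in LrNK WT, against 5.42, 2.6 and 2.58 in cNK WT. The groups did not overlap, but LrNK WT 2+4 lay close to cNK WT 1. The log2 change was 2.82 ± 0.70 (edgeR adjusted p = 0.0342). It was 1.953 to 3.248 with 1 sample left out, and the call was lost without LrNK WT 1 (edgeR adjusted p = 0.0552), LrNK WT 3 (0.0518) or cNK WT 1, 2 or 3 (0.0882 to 0.144). With WT 2+4 as the single LrNK WT sample it was 1.070. Under the CD8KO label it had 98.2 and 32.2 CPM in LrNK and 3.33, 2.8 and 2.29 in cNK. This was a log2 change of 4.63 ± 0.48 (edgeR adjusted p = 0.00243).

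Ifi204 encodes p204, a DNA sensor upstream of STING and the mouse counterpart most often set beside human IFI16. In the WT libraries it had 57.6, 7.9 and 46.1 CPM in LrNK, against 13.3, 5.38 and 6.11 in cNK. One LrNK sample, WT 2+4, fell inside the cNK range, and the log2 change of 2.22 ± 0.72 did not pass the test (edgeR adjusted p = 0.0763). DESeq2 called it (adjusted p = 0.00379). With WT 2+4 as the single LrNK WT sample the log2 change was 0.041. Under the CD8KO label the groups were apart, with 177 and 52.8 CPM in LrNK and 6.95, 8.51 and 8.46 in cNK. Here Ifi204 was higher in LrNK by 3.95 ± 0.48 on the log2 scale (edgeR adjusted p = 0.00394).

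Aim2, the inflammasome sensor, was the steadiest of the 4. It was at 71.9, 81.8 and 91.1 CPM in LrNK WT, against 40, 35.4 and 42.8 in cNK WT, a 2.19-fold difference (log2 1.13 ± 0.14, edgeR adjusted p = 0.00311). Under the CD8KO label it was at 69 and 66.8 CPM in LrNK and at 33.1, 34.2 and 37 in cNK, 2.13-fold apart (log2 1.09 ± 0.10, edgeR adjusted p = 0.00178). In neither label did the cell types overlap.

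Ifi208, a pyrin-domain gene also listed as Pydc3, was at 88.5, 92.3 and 79.6 CPM in LrNK WT and at 71.5, 56.2 and 57.4 in cNK WT. It was higher in LrNK by 0.58 ± 0.15 on the log2 scale (edgeR adjusted p = 0.0373). The change under the CD8KO label was 0.49 ± 0.16 and did not pass (edgeR adjusted p = 0.0696), although 64 and 81.9 CPM in LrNK lay above 55.4, 55.4 and 59.7 in cNK.

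Ifi203, an interferon-inducible nuclear protein, was the member called lower. It was at 281, 240 and 251 CPM in LrNK WT, against 417, 343 and 404 in cNK WT, 1.43-fold lower in LrNK (log2 -0.51 ± 0.12, edgeR adjusted p = 0.0259). Under the CD8KO label the log2 change was -0.20 ± 0.12 (edgeR adjusted p = 0.27), with 298 and 247 CPM in LrNK and 321, 325 and 371 in cNK. Mndal, its close relative, had a log2 change of -0.37 ± 0.15 in WT (edgeR adjusted p = 0.131) and -0.21 ± 0.16 under the CD8KO label (edgeR adjusted p = 0.372), and in both labels every LrNK sample was below every cNK sample.

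The remaining 3 members passed the test in neither label. Ifi209, also listed as Pyhin1, had a log2 change of -0.53 ± 0.18 in WT (edgeR adjusted p = 0.0906), with LrNK below cNK in all samples, and 0.13 ± 0.29 under the CD8KO label. Ifi213, also listed as Pydc4, had -0.28 ± 0.18 in WT and 0.40 ± 0.18 under the CD8KO label. Ifi206 had -0.07 ± 0.10 and 0.32 ± 0.22.

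**Figure D2:**
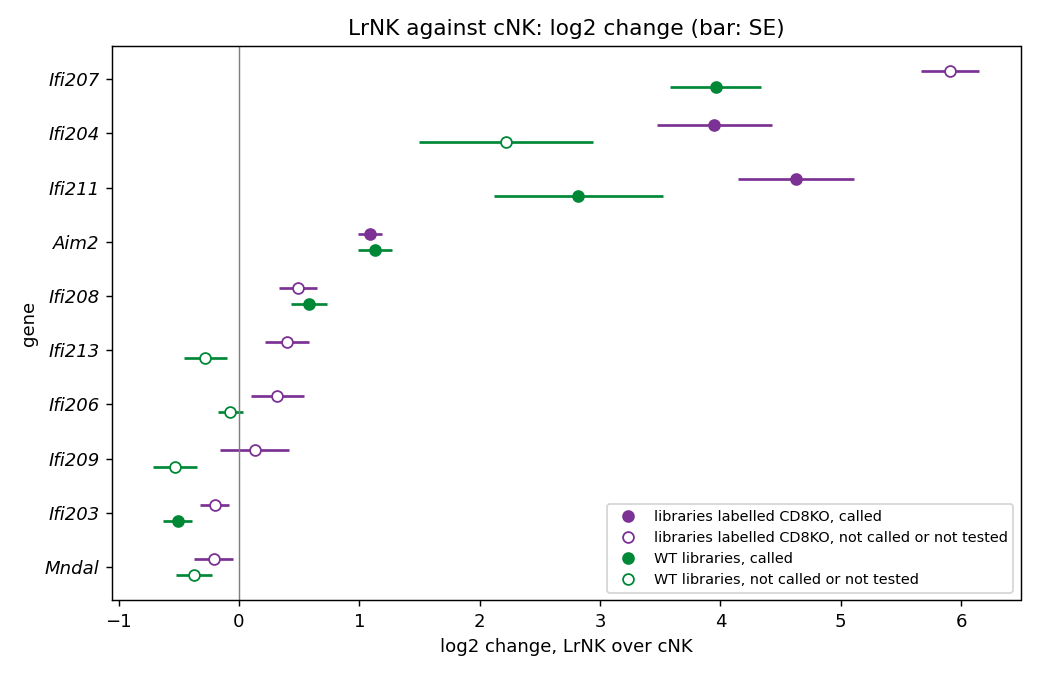
Log2 change of each member, LrNK over cNK, with its standard error, for the libraries labelled CD8KO and for WT. Filled points were called at an edgeR adjusted p under 0.05, and Ifi207 under the CD8KO label is drawn open because it carries no test. Ifi207, Ifi204 and Ifi211 lie between 2.22 and 5.91, Aim2 lies at 1.09 and 1.13, and the other members lie between -0.53 and 0.58.

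The size of the WT count rested on the samples. It was 2, Aim2 and Ifi207, when cNK WT 1, 2 or 3 was left out (5.86% to 6.44% of all genes called), and 3 (Aim2, Ifi203 and Ifi207) without LrNK WT 1 (24.7%). Without both LrNK libraries of few detected genes a lone LrNK WT sample is left, so no count is given. Under the CD8KO label, Aim2, Ifi204 and Ifi211 were called when any 1 cNK sample was left out (9.76% to 10.5% of all genes called). Leaving out LrNK CD8KO 1 or 2+3 leaves a lone LrNK sample, assumed to vary like cNK, so no count is given. The log2 changes were then 1.103 and 1.029 for Aim2, 2.885 and 4.513 for Ifi204 and 3.685 and 5.177 for Ifi211.

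Along the cluster in WT, Ifi207 lay between Ifi208 (log2 0.58) and Ifi204 (2.22, not called), and all 3 were above 0. Ifi211 (2.82) lay within the GENCODE M21 span of Mndal, whose log2 change was -0.37 and not called.

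**Figure D3:**
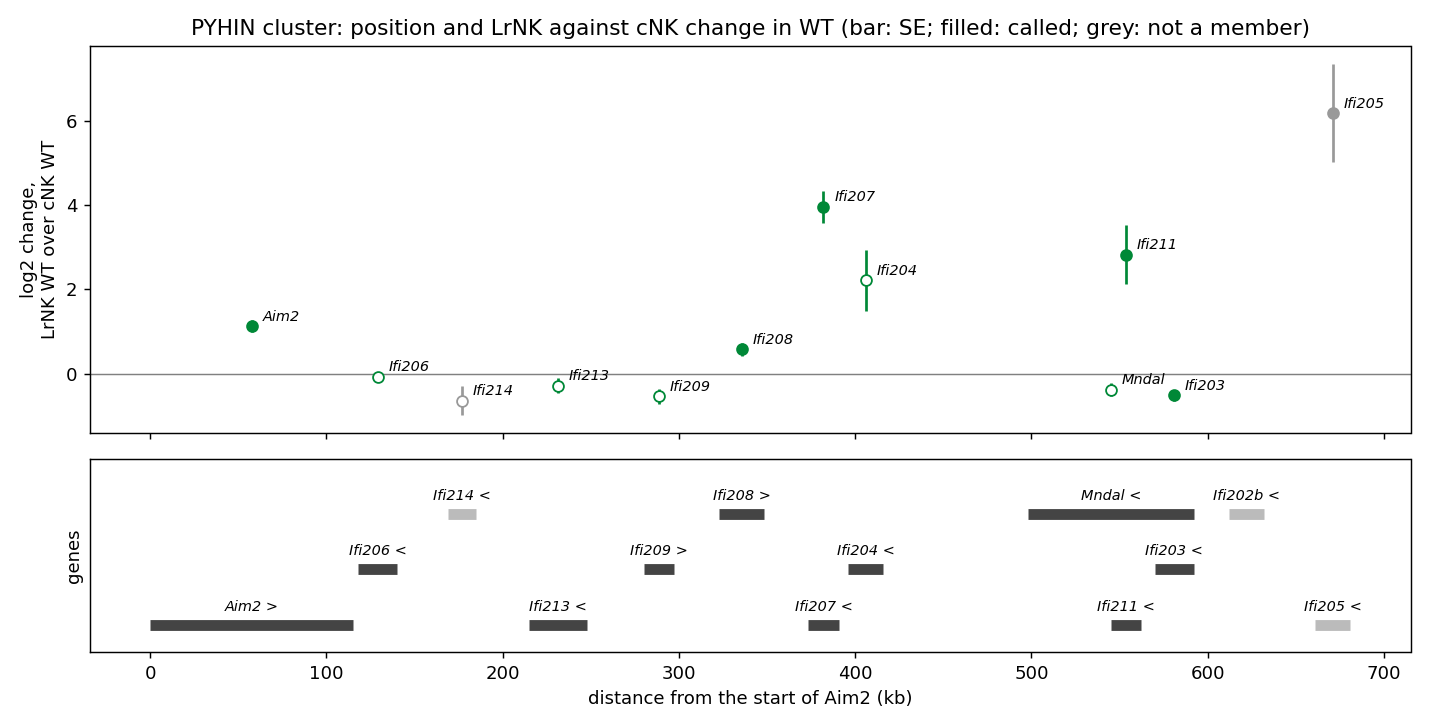
Upper panel: log2 change in WT, LrNK over cNK, with its standard error, of each family gene at its place in the cluster (distance from the start of Aim2, kb), filled where called and grey where the gene is not a listed member. Lower panel: the gene spans, with > for the plus and < for the minus strand. Ifi207 at 373 to 391 kb, Ifi204 beside it and Ifi211 at 545 to 562 kb are at 3.96, 2.22 (open) and 2.82. Mndal, whose GENCODE M21 span holds Ifi211, is at -0.37 (open).

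The second question was whether the CD8KO label went with a change in the family. In LrNK, Ifi207, Ifi204 and Ifi211 had the widest differences by label, and no tested member passed the test. Across all 16504 genes tested, 0% were called (615 had an unadjusted p under 0.05), and 1 of the 9 members tested, Ifi213, had an unadjusted p under 0.05. No gene was called by edgeR here, while DESeq2 called 62 genes and no member. Of the 9 members tested, 1 (Ifi213) was higher without overlap and 1 (Aim2) lower, while the place of Ifi207 was fixed by its selection. Of all genes, 9.84% were higher without overlap and 8.47% lower. The median log2 change over all 10 members, Ifi207 included, was 0.379, against 0.0181 over all genes tested.

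Ifi207 was at 120 and 83.6 CPM in the LrNK samples labelled CD8KO, against 28.5, 18.5 and 39.9 in LrNK WT. The lowest sample labelled CD8KO was above the highest WT sample. Its log2 difference was 1.83 ± 0.33, with no test.

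Ifi213 was at 88.4 and 65.9 CPM in LrNK labelled CD8KO and at 48.3, 45.4 and 38.2 in LrNK WT. The groups did not overlap, and its log2 change of 0.81 ± 0.23 had an unadjusted p of 0.0108 and an edgeR adjusted p of 1. The ratio was 2.04 within the libraries of few detected genes (1 sample labelled CD8KO, 2 WT samples) and 1.45 within the others (1 of each).

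Ifi204 had 177 and 52.8 CPM under the CD8KO label, against 57.6, 7.9 and 46.1 in WT (log2 1.65 ± 0.77, unadjusted p = 0.0692, edgeR adjusted p = 1). Its sample CD8KO 2+3 fell between WT 1 and WT 3. Ifi211 overlapped in the same way, with 98.2 and 32.2 CPM against 19.4, 6.91 and 46.1 (log2 1.44 ± 0.74, unadjusted p = 0.0928, edgeR adjusted p = 1). Without CD8KO 1 the log2 changes of Ifi204 and Ifi211 were 0.633 and 0.533. Over all samples left out in turn they ran from 0.633 to 2.238 for Ifi204 and from 0.533 to 2.313 for Ifi211. Within each set of libraries both genes were higher under the label. The set of few detected genes held 1 sample labelled CD8KO and 2 WT samples, and the other set held 1 of each. Ifi204 was 3.42 times as high among the libraries of few detected genes and 6.68 times among the others, and Ifi211 3 and 4.66 times. A count of 2 members called, Ifi204 and Ifi211, was reached without a filter on low counts, where 1.01% of 25596 genes were called.

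Aim2 was at 69 and 66.8 CPM under the CD8KO label, below 71.9, 81.8 and 91.1 in LrNK WT, with a log2 change of -0.25 ± 0.23 (edgeR adjusted p = 1). Of the others, Ifi206 had a log2 change of 0.39 ± 0.26, Ifi209 of 0.37 ± 0.34, Ifi203 of 0.09 ± 0.20, Mndal of -0.02 ± 0.24 and Ifi208 of -0.23 ± 0.25. All 5 overlapped between labels. The sample CD8KO 1 was the highest for Ifi206 (120 CPM, against 75.3 in the highest WT sample) and Ifi209 (204 CPM against 141), and without it the log2 change of Ifi209 was -0.148.

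In cNK, with its narrow spread, the members moved little by label. None of the 10 was called, where 1.31% of 16619 genes were (2140 genes and 3 members had an unadjusted p under 0.05), and all 10 overlapped between labels. The member median log2 change was -0.143, against -0.00164 over all genes tested. The 3 with the smallest p were Ifi209 at -0.27 ± 0.08 (edgeR adjusted p = 0.142), Ifi203 at -0.20 ± 0.07 (edgeR adjusted p = 0.187) and Aim2 at -0.19 ± 0.07 (edgeR adjusted p = 0.243). Ifi209 had 132, 142 and 175 CPM in cNK labelled CD8KO, against 187, 164 and 187 in cNK WT. DESeq2 and limma-voom with sample weights each called 1 member, Ifi209, lower. Both also called more genes in all, 512 of 13073 with DESeq2 and 332 of 16619 with limma-voom, against 218 of 16619 with edgeR. Ifi207 stayed at 1.4 to 2.08 CPM under the CD8KO label and 1.43 to 2.59 in WT (log2 -0.10 ± 0.25, edgeR adjusted p = 0.915).

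**Figure D4:**
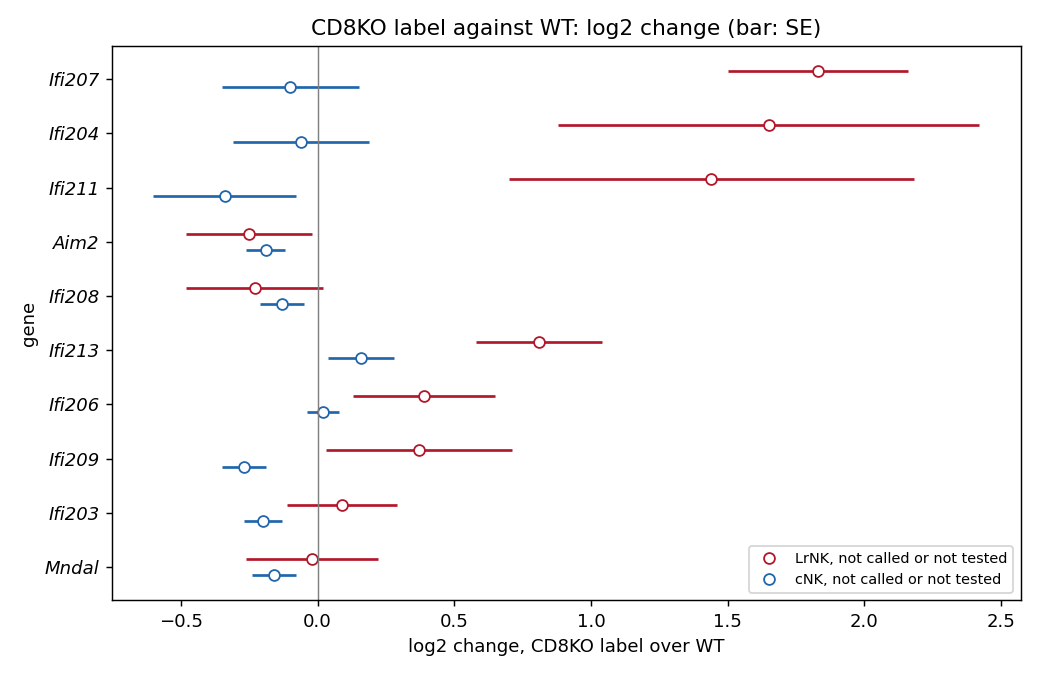
Log2 change of each member, CD8KO label over WT, with its standard error, in LrNK and in cNK. No point was called, and Ifi207 in LrNK was not tested. In LrNK, Ifi207, Ifi204, Ifi211 and Ifi213 lie between 0.81 and 1.83, and in cNK every member lies between -0.34 and 0.16.

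Whether the label's effect differed between LrNK and cNK was tested in 1 model of all 4 groups. No tested member of 9 was called, where 0.0415% of 19287 genes were, and 1 member and 1628 genes had an unadjusted p under 0.05. DESeq2 called 337 genes and no member. That member was Ifi213, with a difference of 0.69 ± 0.27 on the log2 scale (unadjusted p = 0.0283, edgeR adjusted p = 0.523). Ifi211 differed by 1.82 ± 0.90, Ifi204 by 1.73 ± 0.94 and Ifi209 by 0.67 ± 0.36, none past the test. Without the LrNK libraries of few detected genes, 1 LrNK sample per label is left and the spread comes from cNK alone, so no count is given. The difference for Ifi207 was 1.96 ± 0.44, given with no test. Both comparisons of cell types and both of labels share samples, so their values stand side by side and do not count as separate evidence.

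As a sum, transcripts typical of monocytes and neutrophils moved with the same samples. Summed over 12 such markers, LrNK labelled CD8KO had 12359 and 3698 CPM, and LrNK WT had 3425, 1012 and 5582 CPM. In cNK it was 1178 to 1260 under the CD8KO label and 1070 to 1188 in WT, most of it from Ccr2 (731 to 825 and 610 to 708 CPM) and Ly6c2 (177 to 226 and 245 to 270 CPM), so the sum does not compare LrNK with cNK for these cells. All 12 had counts in both LrNK samples labelled CD8KO, 11 in all LrNK WT samples and 10 in every cNK group's samples. Lyz2, the lysozyme of myeloid cells, reached 1962 to 7411 CPM in LrNK labelled CD8KO and 520 to 3532 in LrNK WT, against 14.3 to 18.9 and 12 to 16.3 in the cNK groups of those labels. The listed S100a8 and S100a9 were low, at 1.73 to 6.08 and 6.11 to 6.82 CPM in LrNK labelled CD8KO. In LrNK WT they were at 0 to 0.94 and 0.109 to 6.22 CPM. The sum of 10 Kupffer cell markers was 445 and 215 in LrNK labelled CD8KO and 335, 113 and 290 in LrNK WT, and that of 8 dendritic cell markers was 308 and 150 against 176, 87.6 and 200. The monocyte and neutrophil, Kupffer cell and dendritic cell sums all overlapped between labels in LrNK. T cell transcripts did not, with a sum over 8 markers of 121 and 138 in LrNK labelled CD8KO, against 85.6, 70.9 and 97.1 in LrNK WT. For 10 B cell markers the sum was 23.1 and 162 against 12.4, 16.5 and 22.1, with the high value in CD8KO 2+3. The sum of 8 NK cell markers ran the other way, with 3752 and 4300 under the CD8KO label, against 8092, 8514 and 7152 in LrNK WT and 12104 to 13414 in cNK. In bulk samples, fewer cells of a type and less RNA per cell cannot be told apart, and the part of these transcripts in the family's differences was not tested.

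Samples with like marker sums can be set side by side. LrNK CD8KO 2+3 (marker sum 3698) lay between WT 1 (3425) and WT 3 (5582). At these sums Ifi204 was 52.8 CPM in CD8KO 2+3, against 57.6 and 46.1 in WT 1 and WT 3, and Ifi211 was 32.2 against 19.4 and 46.1. Both were inside the WT pair's range. WT 1 and WT 3 were libraries of few detected genes and CD8KO 2+3 was not, so the match crossed these sets. In WT 2+4, like CD8KO 2+3 outside that set, Ifi204 was 7.9 CPM and Ifi211 6.91, at a marker sum of 1012. Detection and marker sum were not separated here, and the part of either in these levels was not tested. Ifi207 was 83.6 CPM in CD8KO 2+3, against 28.5 and 39.9 in WT 1 and WT 3. Its selection for high values under the CD8KO label fixed that place. Single markers were not alike in this respect. Lyz2 was 1962 CPM in CD8KO 2+3, against 1844 and 3532 in WT 1 and WT 3, inside the pair's range. Cd14, the monocyte co-receptor for lipopolysaccharide, was above the pair, at 95.4 CPM in CD8KO 2+3 against 25.2 and 54.1. So were Ace (232 CPM against 110 and 210) and, narrowly, Csf3r (64.4 against 33.5 and 63.4). Csf1r (491 CPM against 371 and 558) and Clec4a3 (48.5 against 34.2 and 78.8) were inside the range. Mpeg1 was below it (357 CPM against 456 and 479). LrNK WT 2+4, the LrNK sample with the least Lyz2 (520 CPM, against at most 18.9 in cNK), had 18.5 CPM of Ifi207, above all cNK samples (1.4 to 2.59), while its 7.9 CPM of Ifi204 lay inside the cNK range (5.38 to 13.3). Aim2 did not follow the sum, at 81.8 CPM in WT 2+4 and 69 in CD8KO 1, the samples with the lowest and highest marker sums in LrNK.

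**Figure D5:**
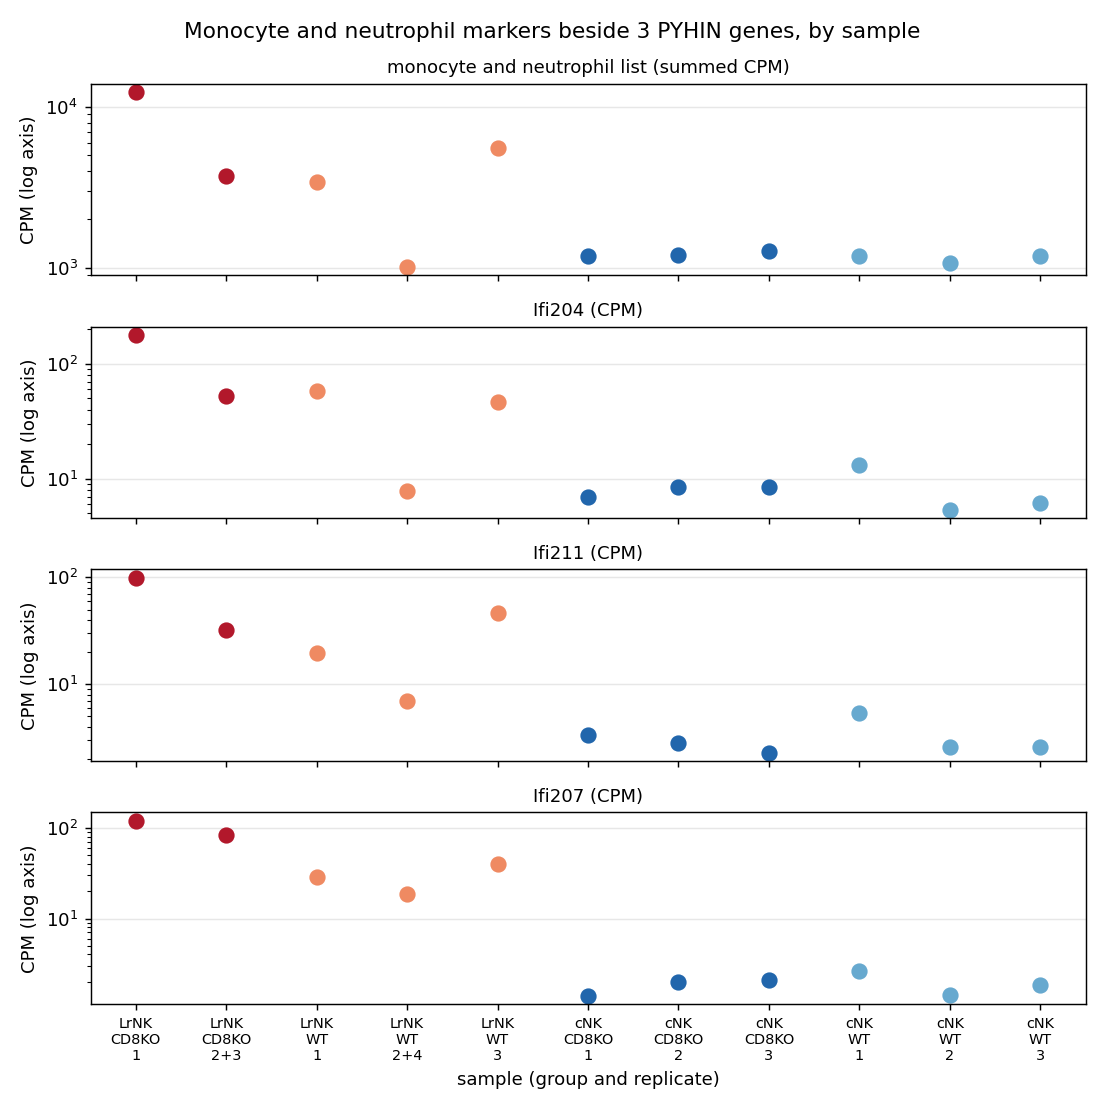
Summed CPM of 12 monocyte and neutrophil markers and CPM of Ifi204, Ifi211 and Ifi207 (log axes) in each of the 11 samples. Ifi204 and Ifi211 are highest in LrNK CD8KO 1, where the marker sum is 12359, and Ifi207 is at 83.6 to 120 in both LrNK samples labelled CD8KO and at 18.5 to 39.9 in LrNK WT.

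Together Ifi204, Ifi207 and Ifi211, a trio picked after their values were seen, made up 27.7% and 16.6% of the summed CPM of the 10 members in LrNK labelled CD8KO. The share was 10.7%, 3.98% and 12.6% in LrNK WT, 1.28%, 1.4% and 1.15% in cNK labelled CD8KO and 1.8%, 0.964% and 0.911% in cNK WT. The total moved less, at 1426 and 1014 CPM in LrNK labelled CD8KO, 983, 838 and 1050 in LrNK WT, and 916 to 1181 in cNK.

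Profiles were also compared by the root mean square difference of mean-centred log2 CPM over the 11 samples. Among the members, Ifi203 and Mndal were closest (0.175), then Ifi206 and Ifi213 (0.236). Ifi204 and Ifi211 differed by 0.505. Of 9570 genes, those nearest to Ifi207 were Tbc1d8 (0.236), Rasgrp4 (0.277), Cd14 (0.318), Grk3 (0.32) and Nfam1 (0.325), where the profile of Ifi207 itself has a root mean square of 2.25. Cd14, one of the 12 markers above, averaged 103 CPM in LrNK labelled CD8KO, 34.3 in LrNK WT, 3.22 in cNK labelled CD8KO and 2.9 in cNK WT. Nearest to the mean profile of the 10 members were Slc39a11 (0.133), Anxa5 (0.158), Slc43a2 (0.161), Mapkapk2 (0.162) and Xbp1 (0.169).

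The partners of Aim2 in the inflammasome did not follow it. Pycard, the adaptor ASC, averaged 30.5 ± 2.34 CPM in LrNK WT and 60.9 ± 0.825 in cNK WT (SD, n = 3 each), lower in LrNK by a log2 change of -0.91 ± 0.13 (edgeR adjusted p = 0.00598), and it was also lower under the CD8KO label (-1.09 ± 0.12, edgeR adjusted p = 0.00318). Casp1, the protease it recruits, was lower in LrNK WT (48.5 ± 8.13 against 75.3 ± 5.17 CPM, log2 -0.56 ± 0.14, edgeR adjusted p = 0.0354) and did not pass under the CD8KO label (-0.14 ± 0.22). Of the listed inflammasome genes, 4 of 14 tested were called higher and 2 lower in LrNK than in cNK in WT, and 7 of 15 higher and 1 lower under the CD8KO label. Over all genes tested these shares were 10.9% higher and 9.83% lower in WT and 15.4% and 11.6% under the CD8KO label. The median log2 change of the list was 0.50 in WT and 1.26 under the CD8KO label. Those higher included Il1b, which encodes interleukin-1 beta (61 ± 41.2 against 0.355 ± 0.0526 CPM in WT), and the sensor Nlrp3 (28 ± 13.8 against 0.359 ± 0.0983), both abundant in myeloid cells. By label, none of the inflammasome genes was called in LrNK or in cNK.

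For cytosolic DNA sensing in LrNK against cNK, 3 of 17 genes were called higher and 2 lower in WT, near the shares over all genes (10.9% and 9.83%). With the CD8KO label, 4 were called higher and 7 lower, beside 15.4% and 11.6% of all genes. The list's median log2 change was -0.07 in WT and 0.17 under the CD8KO label, against -0.08 and -0.05 over all genes. Tmem173, which encodes STING, was at 167 ± 48.4 CPM in LrNK WT and 132 ± 4.04 in cNK WT and did not pass (log2 0.40 ± 0.19, edgeR adjusted p = 0.202). Cgas, the enzyme that makes its ligand, was at 23.5 ± 2.35 and 26.2 ± 1.85 CPM (log2 -0.08 ± 0.15, edgeR adjusted p = 0.762). Among those called in WT, Dnase2a, a lysosomal DNase, was higher in LrNK (log2 1.49 ± 0.31, edgeR adjusted p = 0.0196) and Tbk1, the kinase downstream of STING, lower (-0.55 ± 0.13, edgeR adjusted p = 0.0292).

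Interferon signalling genes were called in both directions. Of 15 receptors, STATs and regulators, 6 were called higher and 3 lower in WT, and 8 higher and 2 lower under the CD8KO label, where 20.7% and 27.0% of all genes were called in either direction. The list's median log2 change was 0.20 in WT and 0.55 under the CD8KO label. The kinase Jak1 was lower in LrNK WT than in cNK WT (631 ± 132 against 1954 ± 13.9 CPM, log2 -1.55 ± 0.16, edgeR adjusted p = 0.00188). Socs1, a feedback inhibitor of the pathway, was higher in LrNK WT (170 ± 60.7 against 31 ± 1.22 CPM, log2 2.56 ± 0.29, edgeR adjusted p = 0.00238). The receptor chain Ifnar1 did not pass (147 ± 22.3 against 183 ± 5.27 CPM, edgeR adjusted p = 0.254).

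Of 33 interferon-stimulated genes outside the family, 9 were called higher and none lower in LrNK WT than in cNK WT, and 20 higher and none lower under the CD8KO label, beside 10.9% and 15.4% of all genes called higher. Their median log2 change was 0.58 in WT, against -0.08 over all genes tested, and 1.42 under the CD8KO label, against -0.05. Isg15, a ubiquitin-like modifier, was at 56.3 ± 15.3 CPM in LrNK WT and 13.9 ± 4.59 in cNK WT (4.28-fold, edgeR adjusted p = 0.00669), and the GTPase Igtp at 118 ± 25.7 and 38.6 ± 5.57 (log2 1.68 ± 0.18, edgeR adjusted p = 0.0022). By label in LrNK none of the 33 was called. Oas3, an antiviral oligoadenylate synthetase, had the smallest p, with 135 ± 60.1 CPM under the CD8KO label (n = 2) and 48.9 ± 15.2 in WT (n = 3) (log2 1.47 ± 0.33, edgeR adjusted p = 1). By label in cNK 2 were called higher, Herc6 (log2 0.62 ± 0.08, edgeR adjusted p = 0.00111) and Oas1a (0.43 ± 0.10, edgeR adjusted p = 0.0404). The median log2 change by label in cNK was 0.02 for these genes and -0.143 for the family members.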

How the data were processed

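Deposited files held 1 column of raw gene counts per library, as whole numbers and with no normalization. HISAT2 2.1.0 and GRCm38 come from the submitters' processing notes, and RNA was made into libraries with an Illumina TruSeq kit per the labels' protocols. For counting, the tool, gene models and strandedness were not given in the sources used here. Symbols, coordinates and exon lengths were taken from GENCODE M21.

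Tests used edgeR 4.0.16 in R 4.3.3 on these counts (TMM scaling, filterByExpr set to 10 counts and a total of 15, quasi-likelihood test, Benjamini-Hochberg adjustment over all genes tested, called under 0.05). Each comparison of 2 groups was fitted on those groups alone, since the spread differed between cell types, and the difference of label effects on all 4. CPM is a count scaled to the library total, per 1000000, and ± after CPM is an SD and after a log2 change an SE. Likeness used a pseudocount of 0.5 CPM and genes whose log2 CPM averaged 2 or more. The steps were tested on simulated data. DESeq2 1.42.0, limma 3.58.1 (voom), no filter, other scaling, a replicate block and left-out samples were alternatives. All members were named in each comparison, and of each pathway list at most the 4 genes of smallest p, with a few fixed key genes. Members and lists were chosen with earlier results of these data known. Replicates numbered 2 to 3 per group, too few for a check of single outlying samples.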

Additional observations from a re-analysis of the deposited data

How the results depend on the processing

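Few samples and a wide LrNK spread set the limits. Members were called in LrNK by label in 2 cases without a filter on low counts and 1 with the replicate block, in cNK by label in 2 without the filter and 1 with DESeq2, voom or the replicate block, in LrNK against cNK WT in 3 with the replicate block, under the CD8KO label, where Ifi207 is counted, in 7 without the libraries of few detected genes, and in the difference of label effects in 3 without those libraries. Shared numbers did not pair the samples between cNK labels (correlations -0.0796 to 0.191) or between cell types (-0.0621 to 0.047). The 2 LrNK label pairs correlated at 0.342 and 0.56, where both samples numbered 1 had few detected genes and both numbered 2 many. With 2 such pairs, pairing in LrNK cannot be told from that difference in detection, so the replicate block is given only here. With the block, Ifi211 in LrNK by label had a log2 change of 2.282 (edgeR adjusted p = 0.0253). Genes called in LrNK by label were 138 with 4 groups in 1 fit, 259 without the filter, 62 with DESeq2, 22 with 13 libraries separately and 180 with the replicate block. In cNK they were 1, 590, 512 and 355 under 4 groups, no filter, DESeq2 and the block, and 332 with voom. In LrNK against cNK they were 1801 (WT) and 2162 (CD8KO label) with the block and 11526 and 10872 without the libraries of few detected genes. For the difference they were 337 with DESeq2, 68 with 13 libraries, 2866 without those libraries and 327 with detection set as a term.

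Leaving out 1 sample at a time gave 0 genes and 0 members in LrNK by label, 71 to 254 genes and 0 to 1 members in cNK, 1021 to 6856 genes and 2 to 7 members in LrNK against cNK WT, 1688 to 13004 genes and 4 to 9 members under the CD8KO label, and 5 to 645 genes and 0 members for the difference.

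Signs turned for members that were not called (log2 values). By label in LrNK, Mndal was 0.005 with 4 groups in 1 fit, 0.024 with voom, 0.025 with 13 libraries and 0.086 with the replicate block, and -0.212 to 0.149 with 1 sample left out, as Ifi209 was -0.148 to 0.749. In cNK, Ifi206 was -0.013 with voom and Ifi204 0.056 with the replicate block, and with 1 sample left out Ifi204 ranged from -0.288 to 0.467, Ifi206 from -0.027 to 0.076, Ifi207 from -0.278 to 0.161 and Ifi211 from -0.526 to 0.104. In LrNK against cNK under the CD8KO label, Ifi209 was -0.024 with voom and -0.036 with 13 libraries. Without the libraries of few detected genes it was -0.429, and Ifi206 was -0.102. Their leave-one-out ranges were -0.429 to 0.492 and -0.102 to 0.611. For the difference, Aim2 was 0.029 with voom and 0.017 with the replicate block, and with 1 sample left out Aim2 ranged from -0.181 to 0.032, Ifi206 from -0.020 to 0.692, Ifi208 from -0.356 to 0.123 and Mndal from -0.029 to 0.308. The cause was not tested.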

Other observations

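The 3 family genes of the annotation that are not listed members gave 3 different pictures. Ifi205, a close relative of Ifi211 in sequence, was at 31.6 and 15.4 CPM in LrNK labelled CD8KO, 14.8, 2.8 and 19.8 in LrNK WT, 0.123, 0.318 and 0.157 in cNK labelled CD8KO and 0.335, 0.165 and 0.0187 in cNK WT. It was higher in LrNK than in cNK in WT (log2 6.18 ± 1.17, edgeR adjusted p = 0.015) and under the CD8KO label (6.95 ± 0.51, edgeR adjusted p = 0.000945), and it shares 18.5% of its 50-base transcript windows with Ifi211. Ifi214 was lower in LrNK under the CD8KO label (5.29 and 7.26 CPM, against 11.7, 15 and 18.8 in cNK, log2 -1.13 ± 0.29, edgeR adjusted p = 0.0384), and its change in WT did not pass (-0.63 ± 0.35, edgeR adjusted p = 0.274). Ifi202b, for which C57BL/6 mice are known to have very low expression, had 0 counts in all 13 libraries, which allows up to 0.0413 to 0.0981 CPM depending on the library (3 counts, counting error only).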
